A study of Mus musculus with 12 samples.

Results

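The 8 genes of the CIS and SOCS family, *Cish* and *Socs1* to *Socs7*, were followed in donor OTII cells from Day 3 to Day 5 of a primary response. They were found by symbol among the 40840 genes listed in the count files, all 8 were listed, and all 8 were among the 13570 genes that passed the filter on low counts and were tested. The 12 libraries formed 4 groups of 3 replicates, namely WT recipients on Day 3, WT recipients on Day 5, *Il6*-/- recipients on Day 3 and *Il6*-/- recipients on Day 5. OTII cells are CD4+ T cells with a transgenic receptor for an ovalbumin peptide. In every group they were transferred into a host, the host received intranasal house dust mite (HDM) extract with ovalbumin, and the donor cells were sorted from the mediastinal lymph node by B220, CD4, CD44 and CD45.1. By the paper, endotoxin (lipopolysaccharide, LPS) was added to an HDM extract low in endotoxin, and all 4 groups received this mix. The submitters' text numbers its days from 1 where the paper counts from 0. The genotype is that of the recipient. The donor cells carried *Il6* in all 4 groups, so the 0 to 5 *Il6* reads per library do not check the labels, and the hosts kept all other cells. The number of animals behind a replicate is not given in the sources used here, and the p-values then measure the spread between these samples, which may be technical. The labels name blood as the tissue.

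CIS and SOCS proteins are feedback inhibitors of cytokine signaling. A cytokine receptor activates JAK kinases, these phosphorylate STAT factors, and the STATs switch on *Cish* and *Socs* genes, whose products bind the receptor or the JAK through an SH2 domain and recruit a ubiquitin ligase through a C-terminal SOCS box. SOCS1 and SOCS3 also hold a short region that blocks the kinase directly. In CD4+ T cells *Cish* is known as a target of IL-2 and STAT5, *Socs3* of IL-6 and STAT3, and *Socs1* of interferon gamma, while SOCS4 to SOCS7 are studied mostly with receptor tyrosine kinases.

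The sequences around the starts of the 3 cytokine-induced members with the largest part in the results are shown because they hold letters that STAT factors and interferon regulatory factors are known to read. Of the 8 members, *Cish*, *Socs1*, *Socs3* and *Socs4* were matched in the RefSeq promoter table (GRCm38.p6), and each of these windows had 1 exact match in GRCm39, whose coordinates are given. Each runs from 250 bases before to 25 bases after the RefSeq start, 5′ to 3′ on the strand of the gene. Capitals mark TTCNNNGAA in *Cish* and *Socs3* and GAAANNGAAA in *Socs1*, searched on both strands.
*Cish*, chr9:107173608-107173882, plus strand: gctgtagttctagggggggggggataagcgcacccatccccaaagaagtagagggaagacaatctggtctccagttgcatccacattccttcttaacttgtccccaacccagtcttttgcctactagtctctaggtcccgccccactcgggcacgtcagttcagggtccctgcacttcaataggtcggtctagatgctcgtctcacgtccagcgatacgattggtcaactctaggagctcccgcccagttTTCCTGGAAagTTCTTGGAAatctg
*Socs1*, chr16:10603376-10603650, minus strand: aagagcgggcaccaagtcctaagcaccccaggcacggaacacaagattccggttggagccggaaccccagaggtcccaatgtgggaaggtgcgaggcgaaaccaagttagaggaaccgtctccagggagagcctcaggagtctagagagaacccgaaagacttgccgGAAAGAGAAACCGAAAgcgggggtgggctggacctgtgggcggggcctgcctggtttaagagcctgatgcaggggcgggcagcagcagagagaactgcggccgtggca
*Socs3*, chr11:117860168-117860442, minus strand: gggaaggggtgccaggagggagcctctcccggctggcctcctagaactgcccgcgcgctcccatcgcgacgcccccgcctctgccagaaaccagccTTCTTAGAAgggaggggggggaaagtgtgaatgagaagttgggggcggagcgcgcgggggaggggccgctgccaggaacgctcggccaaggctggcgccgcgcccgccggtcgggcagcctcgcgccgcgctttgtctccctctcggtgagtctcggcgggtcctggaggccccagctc
*Cish* held TTCNNNGAA at bases 1 to 9 and again at bases 12 to 20 after the start, both on the transcribed side. *Socs3* held it once, 154 bases before the start. *Socs1* held a pair of GAAANNGAAA matches that overlap, the first of which begins 83 bases before the start. The *Socs4* window held none of the motifs searched. Of 32851 such windows, 7.71% held TTCNNNGAA, 6.39% held the 1-base-wider TTCNNNNGAA and 3.25% held GAAANNGAAA. The 3 windows shown lie inside the GENCODE spans of their genes given below. Positions are therefore counted from the RefSeq start and not from the outermost GENCODE start. A match of letters is a description and not a site of binding.

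The genes lie on 7 chromosomes of GRCm39 (GENCODE vM39). *Cish* spans chr9:107173225-107179983, *Socs1* chr16:10600104-10603875, *Socs2* chr10:95219523-95253929, *Socs3* chr11:117856905-117860898, *Socs4* chr14:47514368-47533559, *Socs5* chr17:87414674-87445267, *Socs6* chr18:88683348-88945635 and *Socs7* chr11:97253032-97289368. Exons of *Socs2* share 451 bases with 2310039L15Rik and 689 bases with 5730420D15Rik, and exons of *Socs5* share 171 bases with Gm30510. Reads were counted without strand, so reads in those stretches could not be assigned to either gene with certainty.

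The libraries held 16125947 to 26111657 reads assigned to a gene. Such reads were 60.2% to 62.2% of all reads on Day 3 but 52.5% to 56.7% on Day 5, so the share of reads on genes moved with the day, and its part in the changes over time was not tested. The 8 markers of CD4+ T cells summed to 5487 to 6316 CPM (counts per 1000000 reads on genes, with library sizes scaled by TMM) on Day 3 and 8331 to 9750 CPM on Day 5, led by *Lck*. The 7 B cell markers summed to 6.55 to 16.6 CPM over all libraries. In bulk samples, fewer cells of a type and less RNA per cell cannot be told apart.

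Each member gave 36 or more reads in every library except *Socs2*, which gave 6 to 47. Summed over the 8 members, the family reached 100.2 ± 11.2 CPM in WT recipients on Day 3 and 120.2 ± 15.8 CPM on Day 5 (SD, n = 3), and 129.7 ± 9.93 CPM and 112.2 ± 0.955 CPM in *Il6*-/- recipients. The summed level in WT recipients spanned 93.5 to 113 CPM on Day 3 and 103 to 134 CPM on Day 5, so these groups overlapped, whereas the *Il6*-/- groups did not overlap (119 to 138 CPM against 111 to 113 CPM). That separation depends on the TMM factors, which in *Il6*-/- recipients were 0.944 to 0.95 on Day 3 and 1.04 to 1.06 on Day 5. Without these factors the *Il6*-/- groups overlap in this sum. The 3 cytokine-induced members *Cish*, *Socs1* and *Socs3* carried most of this movement. Their sum went from 52.4 ± 9.53 to 69.5 ± 12.4 CPM in WT recipients. In *Il6*-/- recipients it went from 71.5 ± 5.59 to 57.7 ± 2.38 CPM. *Socs4* to *Socs7* together lay between 44.0 and 60.7 CPM in all 12 libraries. On Day 3 the sum of *Socs4* to *Socs7* split by genotype. Every WT library of that day held at most 47.7 CPM, and every *Il6*-/- library at least 52.0 CPM. On Day 5 the genotypes overlapped in this sum.

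**Figure D1:**
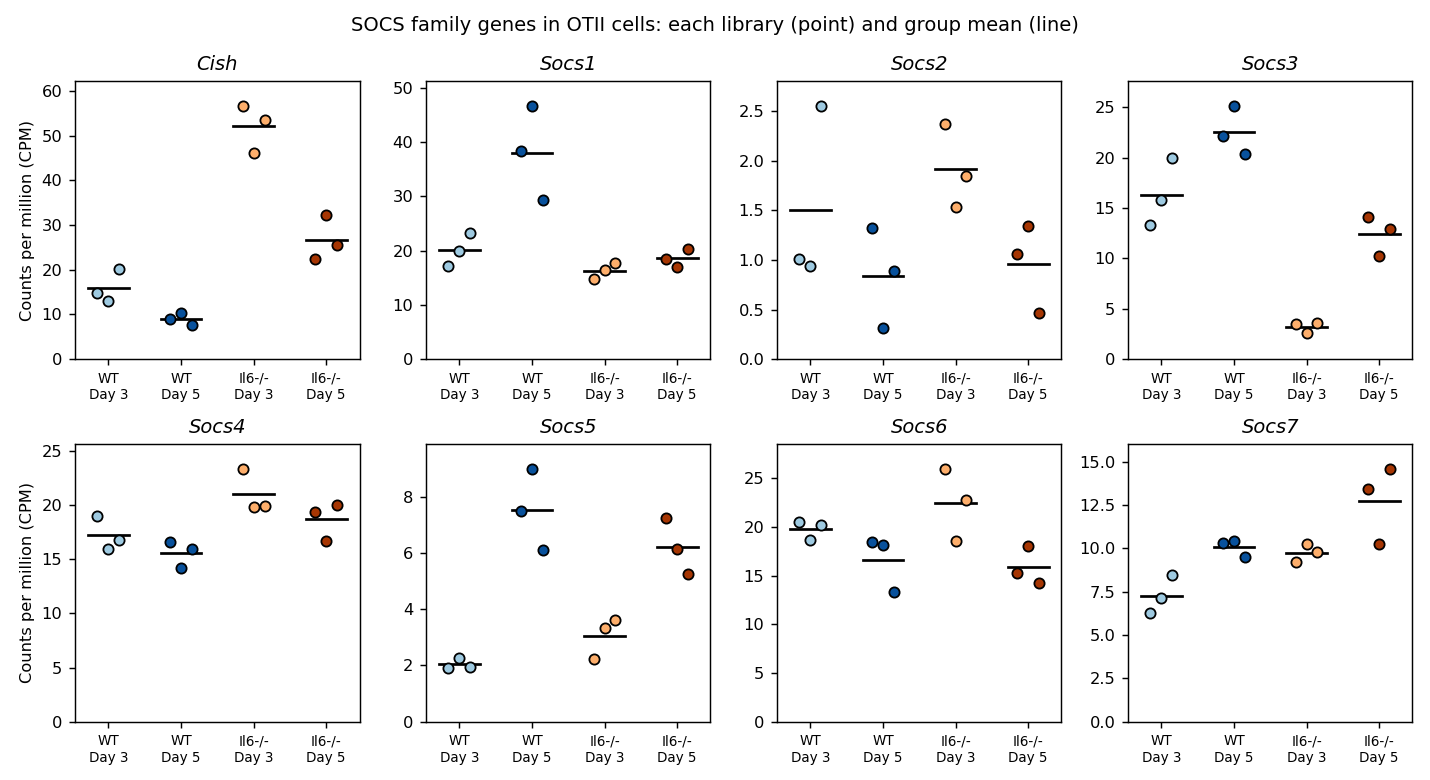
The level of each SOCS family gene (CPM, y axis from 0, with a scale of its own in each panel) in each of the 12 libraries, with points for libraries and a line for the mean of the 3 replicates. *Cish* sits at 46.1 to 56.6 CPM in *Il6*-/- recipients on Day 3, where *Socs3* sits at 2.60 to 3.60 CPM.

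To compare members with each other, CPM were divided by the exon length of the gene in kb. In WT recipients *Socs1* stood first on both days, with 5.94 ± 0.879 CPM per kb on Day 3 and 11.3 ± 2.57 CPM per kb on Day 5 (SD, n = 3), followed by *Socs3* with 4.58 ± 0.945 and 6.32 ± 0.677 CPM per kb. On Day 3 the libraries of these neighbours overlapped, as did those of *Socs4* and *Cish* (2.49 CPM per kb for *Cish*). *Socs6*, *Socs7*, *Socs5* and *Socs2* came below them in that order. On Day 5 *Socs6*, *Cish* and *Socs7* lay between 1.29 and 1.40 CPM per kb and overlapped.

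The order was another in *Il6*-/- recipients on Day 3. *Cish* stood first with 8.11 ± 0.838 CPM per kb, *Socs1* followed with 4.81 ± 0.437 CPM per kb, and *Socs3* was sixth with 0.902 ± 0.151 CPM per kb, below *Socs4*, *Socs6* and *Socs7*. No neighbours overlapped in this group. On Day 5 *Socs1* (5.49 CPM per kb), *Cish* (4.16 CPM per kb), *Socs3* (3.49 CPM per kb) and *Socs4* (2.71 CPM per kb) formed a series in which each overlapped the next. *Socs2* was last in all 4 groups, at 0.0552 to 0.126 CPM per kb.

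Expressed as a share of the summed family level per kb, *Socs1* went from 32.1% ± 1.60 to 44.7% ± 3.59 in WT recipients (SD, n = 3; a description, without a test). *Cish* went from 13.4% ± 1.68 to 5.57% ± 0.111 there and from 39.4% ± 1.82 to 21.2% ± 4.55 in *Il6*-/- recipients. The share of *Socs3* was 24.7% ± 2.14 and 25.4% ± 1.42 in WT recipients on Day 3 and Day 5, and 4.37% ± 0.484 and 17.7% ± 2.46 in *Il6*-/- recipients. The shares depend on the length used. With the canonical transcript in place of all annotated exons, *Socs1* took 37.5% in WT recipients on Day 5, *Cish* took 27.7% and *Socs1* 21.6% in *Il6*-/- recipients on Day 5, and *Socs2* stood above *Socs5* on Day 3. These lengths differ most for *Socs2* (15258 bases of exons against 2540), *Socs6* (11887 against 6085) and *Cish* (6419 against 3647).

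**Figure D2:**
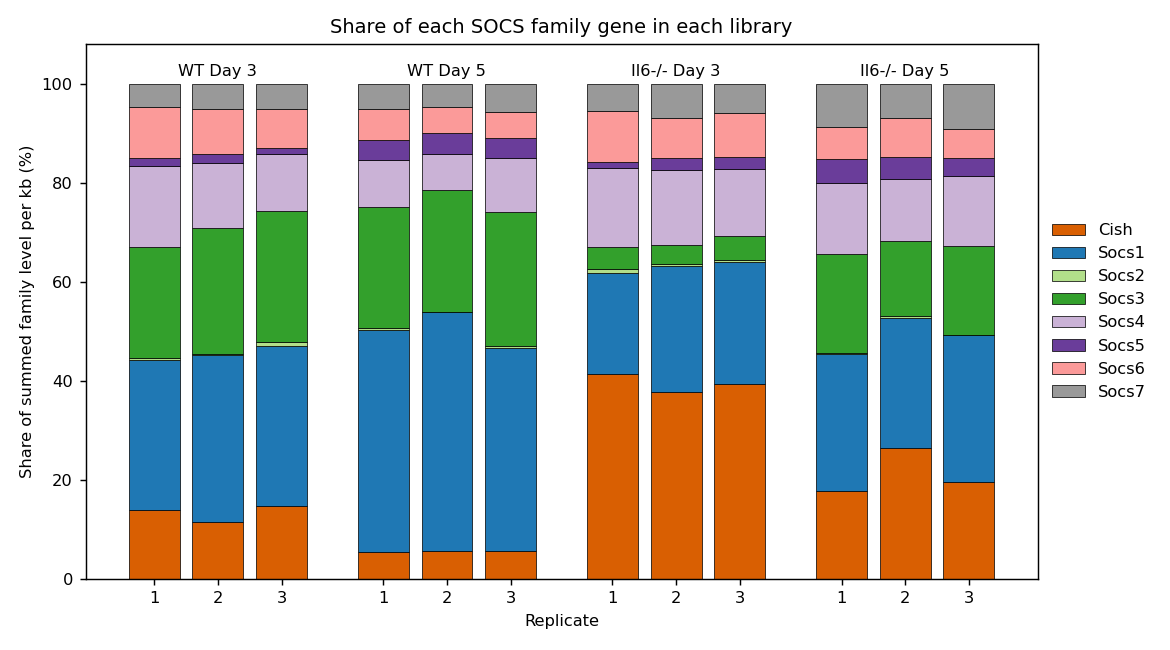
The share of each member in the summed family level per kb of exon (y axis, percent), 1 stacked bar for each library. *Cish* takes 37.7% to 41.3% of the bar in *Il6*-/- recipients on Day 3 and 5.45% to 5.66% in WT recipients on Day 5.

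The first question was how each member changed between the days. In WT recipients *Socs5*, *Socs1*, *Socs7* and *Socs3* rose and *Cish* fell, which is 5 of 8 members at FDR under 0.05 in edgeR's quasi-likelihood test, against 56.7% of all genes tested (29.5% rose and 27.1% fell). In *Il6*-/- recipients *Socs3* and *Socs5* rose and *Cish* and *Socs6* fell, which is 4 of 8 against 60.5% of all genes (30.4% rose and 30.1% fell). These shares of the members were near those of all genes, since most genes tested moved between the days. Upper-quartile scaling made 66.5% of all calls in WT recipients rises, in place of 52.1%, and 65.0% in *Il6*-/- recipients, in place of 50.2% (60.4% with no scaling). The change was at least 2-fold for 1 member in WT recipients, against 22.1% of all genes, and for 2 members in *Il6*-/- recipients, against 25.9%. The libraries of the 2 days did not overlap for 6 members in either genotype, against 63.3% and 65.8% of all genes. The median log2 fold change of the members was 0.16 in WT and 0.01 in *Il6*-/- recipients, beside 0.09 and 0.09 over all genes.

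**Figure D3:**
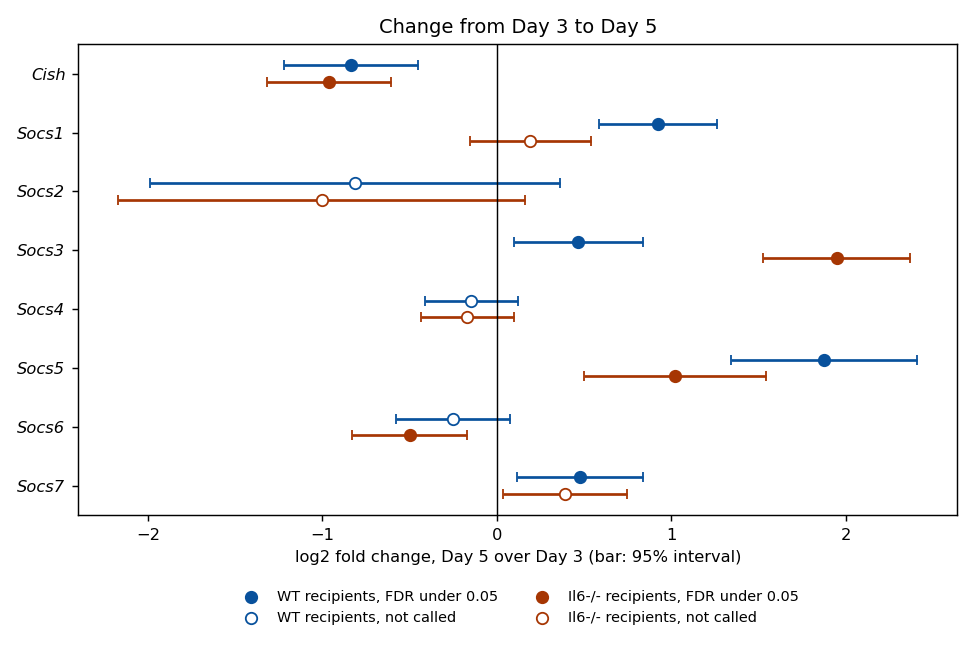
The log2 fold change of each member from Day 3 to Day 5 (x axis), with its 95% interval, in WT (blue) and *Il6*-/- recipients (brown), where filled points passed FDR under 0.05. The intervals of *Socs3* lie apart between the genotypes (0.10 to 0.84 in WT, 1.53 to 2.37 in *Il6*-/- recipients), and those of *Cish* lie together.

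*Cish* encodes CIS, an inhibitor of IL-2 receptor and STAT5 signaling. In WT recipients its libraries held 14.9, 12.9 and 20.1 CPM on Day 3 and 8.86, 10.3 and 7.66 CPM on Day 5. Those from *Il6*-/- recipients held 56.6, 46.1 and 53.5 CPM on Day 3 and 22.4, 32.2 and 25.5 CPM on Day 5. The days did not overlap in either genotype, and every library from *Il6*-/- recipients was above every library from WT recipients, Day 5 included. *Cish* fell by 0.84 on the log2 scale in WT recipients (SE 0.18, FDR = 0.0010) and fell by 0.96 in *Il6*-/- recipients (SE 0.17, FDR = 1.4e-04). The difference between these changes was -0.13 on the log2 scale (95% interval -0.65 to 0.39, FDR = 0.82).

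*Socs3*, an inhibitor of gp130 and JAK signaling, is induced by IL-6. In WT recipients it was measured at 13.3, 15.8 and 19.9 CPM on Day 3 and at 22.1, 25.1 and 20.3 CPM on Day 5. In *Il6*-/- recipients it was measured at 3.43, 2.60 and 3.60 CPM on Day 3 and at 14.1, 10.3 and 12.9 CPM on Day 5. The lowest group was *Il6*-/- recipients on Day 3, apart from all the others, and the libraries of *Il6*-/- recipients on Day 5 reached into the range of WT recipients on Day 3. *Socs3* rose 3.86-fold in *Il6*-/- recipients (log2 fold change 1.95, SE 0.20, FDR = 6.9e-07) and 1.38-fold in WT recipients (log2 fold change 0.47, SE 0.17, FDR = 0.031). The log2 change in *Il6*-/- recipients exceeded that in WT recipients by 1.48 (SE 0.26, FDR = 0.0081).

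The rise of *Socs3* in WT recipients was small beside its spread. It no longer passed without WT Day 3 replicate 1 (0.33, FDR = 0.15), WT Day 3 replicate 2 (0.44, FDR = 0.087), WT Day 5 replicate 1 (0.48, FDR = 0.059) or WT Day 5 replicate 2 (0.38, FDR = 0.12). It also did not pass with an offset for GC content (0.24, FDR = 0.27) or for gene length (0.39, FDR = 0.068), or with no filter on low counts (0.40, FDR = 0.067). The rise in *Il6*-/- recipients and the difference between the genotypes passed in all fits, the 12 that each left out 1 library included.

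*Socs1*, an inhibitor of JAK kinases that is induced by interferon gamma, rose in WT recipients. Its libraries held 17.2, 19.9 and 23.2 CPM there on Day 3 and 38.4, 46.6 and 29.2 CPM on Day 5. Those from *Il6*-/- recipients held 14.7, 16.4 and 17.7 CPM on Day 3 and 18.5, 16.9 and 20.4 CPM on Day 5. The 3 WT libraries of Day 5 were above the other 9, while the days overlapped in *Il6*-/- recipients. The change was 1.90-fold in WT recipients (log2 fold change 0.92, SE 0.16, FDR = 1.6e-04). In *Il6*-/- recipients the log2 fold change was 0.19 (95% interval -0.15 to 0.54, FDR = 0.32), 0.42 with upper-quartile scaling (FDR = 0.033) and -0.03 with the offset for GC content.

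The change of *Socs1* in *Il6*-/- recipients was smaller than in WT recipients by 0.73 on the log2 scale (interaction -0.73, SE 0.23), a difference that did not pass (FDR = 0.077; unadjusted p = 0.0057). It passed with DESeq2 (-0.70, FDR = 0.039), with no filter on low counts (-0.72, FDR = 0.012) and without WT Day 5 replicate 3 (-0.89, FDR = 0.015), the lowest of the 3 WT libraries of Day 5.

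*Socs5*, a member with a long N-terminal region that is studied with the EGF and IL-4 receptors, rose in both genotypes. It stood at 1.91, 2.27 and 1.95 CPM in WT recipients on Day 3 and at 7.48, 8.99 and 6.11 CPM on Day 5. On Day 3 it stood at 2.22, 3.34 and 3.60 CPM in *Il6*-/- recipients and on Day 5 at 7.25, 6.15 and 5.26 CPM. All 6 libraries of Day 5 were above all 6 of Day 3. The rise was 3.67-fold in WT recipients (log2 fold change 1.88, SE 0.25, FDR = 1.5e-05), the only change of at least 2-fold there, and 2.03-fold in *Il6*-/- recipients (1.02, SE 0.25, FDR = 0.0021). The changes differed by -0.85 on the log2 scale (95% interval -1.60 to -0.11), which did not pass over all genes (FDR = 0.18).

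*Socs7* and *Socs6*, studied with insulin and receptor tyrosine kinase signaling, moved less. *Socs7* stood at 6.24, 7.12 and 8.47 CPM in WT recipients on Day 3 and at 10.3, 10.4 and 9.50 CPM on Day 5, without overlap (log2 fold change 0.48, SE 0.17, FDR = 0.026). The libraries of *Il6*-/- recipients held 9.19, 10.2 and 9.76 CPM on Day 3 and 13.4, 10.3 and 14.6 CPM on Day 5 (0.39, SE 0.17, FDR = 0.053). The change in WT recipients did not pass without WT Day 3 replicate 1 (0.37, FDR = 0.12), WT Day 3 replicate 2 (0.46, FDR = 0.069), WT Day 5 replicate 1 (0.46, FDR = 0.062) or WT Day 5 replicate 2 (0.45, FDR = 0.066). It did not pass either with the offset for GC content (0.36, FDR = 0.086), with no filter on low counts (0.41, FDR = 0.13) or in a fit of the 2 WT groups alone (0.45, FDR = 0.053). The change in *Il6*-/- recipients passed without *Il6*-/- Day 5 replicate 2 (0.54, FDR = 0.013) and in 4 other settings, with upper-quartile scaling (0.62, FDR = 0.0058) among them. For *Socs7* the intervals of both changes lie above 0 and their difference was -0.08 (95% interval -0.59 to 0.42), so a call in WT and none in *Il6*-/- recipients was no sign of a difference.

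*Socs6* stood at 20.5, 18.7 and 20.1 CPM in WT recipients on Day 3 and at 18.5, 18.1 and 13.3 CPM on Day 5 (log2 fold change -0.25, FDR = 0.18). In *Il6*-/- recipients it stood at 25.9, 18.6 and 22.8 CPM on Day 3 and at 15.3, 18.0 and 14.3 CPM on Day 5, where it fell by 0.50 on the log2 scale (SE 0.15, FDR = 0.011). The days did not overlap in either genotype, but in each the lowest library of Day 3 lay just above the highest of Day 5. The call was lost without *Il6*-/- Day 3 replicate 1 (-0.39, FDR = 0.064) or *Il6*-/- Day 5 replicate 3 (-0.43, FDR = 0.051), with upper-quartile scaling (-0.27, FDR = 0.12) and with no scaling (-0.35, FDR = 0.058). The difference between the genotypes was -0.25 (FDR = 0.57).

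*Socs4*, the nearest relative of *Socs5* by structure, spanned 14.2 to 23.3 CPM over the 12 libraries and did not pass in either genotype. Its log2 fold change was -0.15 in WT (95% interval -0.41 to 0.12) and -0.17 in *Il6*-/- recipients (-0.43 to 0.10), which leaves room for a fall of up to 0.43 and a rise of up to 0.12 on that scale. With upper-quartile scaling, which moved the median of all genes by 0.20 in WT and 0.23 in *Il6*-/- recipients, its changes were 0.05 and 0.06. Since *Socs5* rose beside it, the ratio of *Socs5* to *Socs4* reads went from 0.120 ± 0.0215 to 0.488 ± 0.129 in WT recipients and from 0.148 ± 0.0464 to 0.335 ± 0.0626 in *Il6*-/- recipients (SD, n = 3).

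*Socs2*, known for its block of growth hormone receptor and for induction by STAT5, gave too few reads to settle a change. It was counted with 26, 19 and 47 reads in WT recipients on Day 3 and 26, 6 and 19 reads on Day 5, and with 45, 29 and 39 reads on Day 3 and 20, 23 and 9 reads on Day 5 in *Il6*-/- recipients. In CPM it spanned 0.312 to 2.55, and the highest library was WT Day 3 replicate 3. The log2 fold change was -0.81 in WT (95% interval -1.99 to 0.36, FDR = 0.22) and -1.01 in *Il6*-/- recipients (-2.17 to 0.16, FDR = 0.12).

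A second question was whether the members differed between recipients on the same day. On Day 3, 2 of 8 members passed, *Cish* higher and *Socs3* lower in *Il6*-/- recipients, against 13.7% of all genes (7.52% higher and 6.19% lower). On Day 5, 3 of 8 passed, *Cish* higher and *Socs1* and *Socs3* lower, against 4.61% of all genes (1.27% higher and 3.35% lower). With the replicate number as a block, by which the Day 5 samples were taken to be paired, the same 3 members passed on Day 5 against 11.7% of all genes. Both members called on Day 3, and *Cish* and *Socs1* on Day 5, differed by at least 2-fold, against 2.74% and 1.14% of all genes. For 4 members on each day WT and *Il6*-/- libraries were without overlap, against 36.2% and 19.6% of all genes. The median log2 difference of the members was 0.32 on Day 3 and 0.05 on Day 5, beside 0.01 and 0.01 over all genes. Of all calls on Day 3, 54.9% were higher in *Il6*-/- recipients, 44.8% with upper-quartile scaling and 39.3% with no scaling, and on Day 5, 27.5% were higher, or 40.8% with no scaling.

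The differences of *Cish* were 3.27-fold on Day 3 (log2 1.71, FDR = 2.3e-05) and 2.99-fold on Day 5 (log2 1.58, FDR = 6.7e-04). *Socs3* was 5.05-fold lower on Day 3 (log2 -2.34, FDR = 7.7e-06) and 1.81-fold lower on Day 5 (log2 -0.86, FDR = 0.012). The Day 5 difference of *Socs3* did not pass without WT replicate 2 (-0.77, FDR = 0.063) or without *Il6*-/- replicate 2 (-0.71, FDR = 0.068). *Socs1* differed by -0.30 on the log2 scale on Day 3 (95% interval -0.65 to 0.04, FDR = 0.26) and was 2.05-fold lower on Day 5 (log2 -1.03, FDR = 0.0028). *Socs4*, *Socs5*, *Socs6*, *Socs7* and *Socs2* did not pass on either day, with log2 differences of 0.18 to 0.58 on Day 3 and -0.27 to 0.34 on Day 5. The comparisons of days and of genotypes use the same 12 libraries and are not independent of each other.

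**Figure D4:**
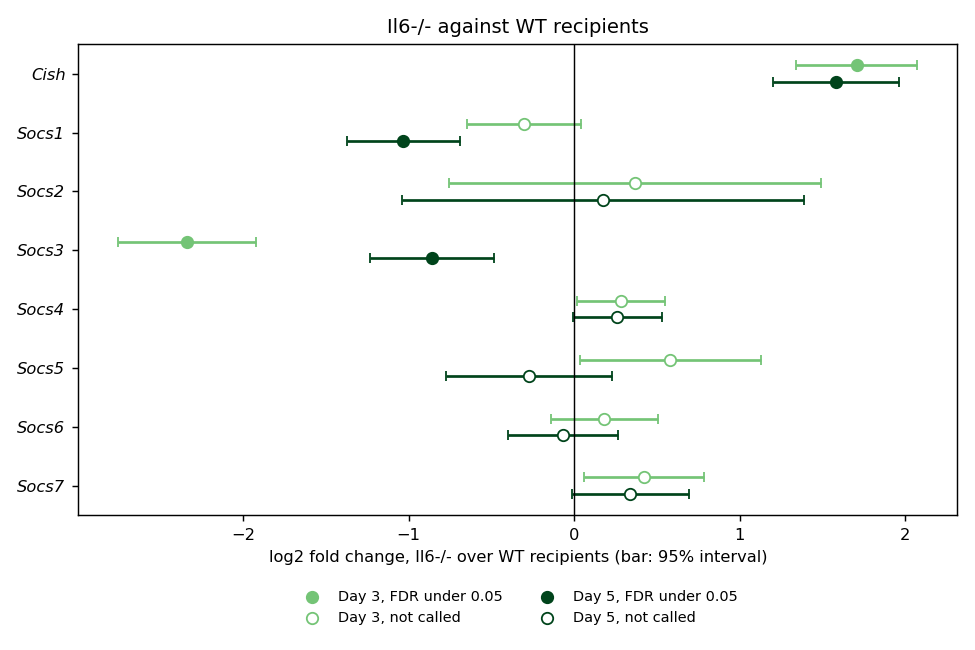
The log2 difference of each member between *Il6*-/- and WT recipients (x axis), with its 95% interval, on Day 3 (light green) and Day 5 (dark green), where filled points passed FDR under 0.05. *Cish* stays at 1.71 and 1.58, *Socs3* goes from -2.34 to -0.86 and *Socs1* from -0.30 to -1.03.

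Of the 8 members, *Socs3* alone passed the test of a difference between the changes over time (4.92% of all genes passed, 1.8% with a more positive and 3.12% with a more negative change in *Il6*-/- recipients). The other 7 members had differences between -0.85 and -0.02 on the log2 scale, and all 7 were below 0, beside a median of 0.0045 over all genes, but *Socs4* turned above 0 with upper-quartile scaling (0.01) and with no scaling (0.08), and *Socs7* with no scaling (0.02). With upper-quartile scaling 47.2% of all calls in this test were more positive in *Il6*-/- recipients, and with no scaling 64.8%, in place of 36.5%. The intervals of *Socs1* (-1.21 to -0.25) and *Socs5* (-1.60 to -0.11) did not reach 0.

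*Cish* and *Socs3* moved in opposite directions over time in both genotypes, and the balance of their reads within a library followed. The ratio of *Cish* to *Socs3* reads was 0.983 ± 0.153 in WT recipients on Day 3 and 0.396 ± 0.0167 on Day 5 (SD, n = 3). In *Il6*-/- recipients it was 16.4 ± 1.44 on Day 3 and 2.24 ± 0.808 on Day 5. The 4 groups did not overlap in this ratio, and the highest library in WT recipients (1.12) was below the lowest in *Il6*-/- recipients (1.59). The ratio of *Socs1* to *Socs3* reads was 1.24 ± 0.0702 and 1.68 ± 0.214 in WT recipients and 5.17 ± 1.03 and 1.51 ± 0.178 in *Il6*-/- recipients, so on Day 5 the genotypes overlapped. The summed reads of *Socs1* and *Socs3* were 36.4 ± 6.33 and 60.6 ± 11.1 CPM in WT recipients and 19.5 ± 1.61 and 31.0 ± 3.32 CPM in *Il6*-/- recipients. No member was called higher in *Il6*-/- recipients on a day when *Socs3* was lower, other than *Cish*. On Day 3, however, the intervals of the log2 difference lay above 0 for *Socs4* (0.02 to 0.55), *Socs5* (0.03 to 1.13) and *Socs7* (0.06 to 0.78). Their FDR was 0.16, 0.16 and 0.12, and the libraries of *Socs4* and *Socs7* did not overlap between the genotypes. The intervals of *Socs2* and *Socs6* included 0 on Day 3, as did those of all these members on Day 5.

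**Figure D5:**
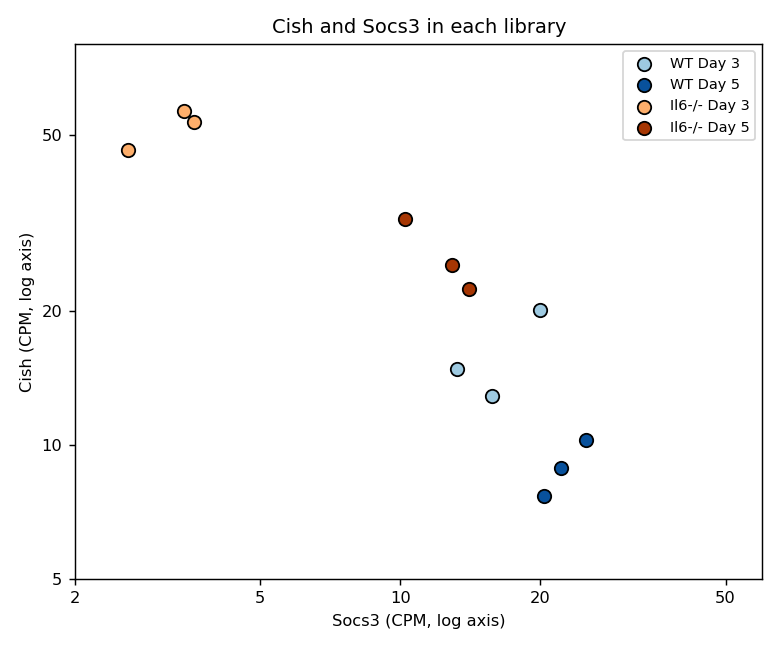
*Cish* against *Socs3* in each of the 12 libraries (both axes CPM on a log scale). The libraries of *Il6*-/- recipients go from the upper left on Day 3 towards the WT libraries on Day 5, where *Socs3* lies at 10.3 to 14.1 CPM and *Cish* at 22.4 to 32.2 CPM.

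The members were also set beside each other by the root mean square (RMS) difference of their log2 CPM over the 12 libraries, each centred on its own mean. The closest were *Socs4* and *Socs6* (0.25) and *Socs4* and *Socs7* (0.34), and the farthest were *Cish* and *Socs3* (1.98). Among 11557 other genes with a mean of at least 1 CPM, those nearest to *Cish* were *Irf8* (0.39), *Plin2* (0.43) and *Arhgap24* (0.43), against a median of 1.01 over all of them. *Irf8* had means of 52.4 and 34.5 CPM in WT and 120 and 64.3 CPM in *Il6*-/- recipients on Day 3 and Day 5. Those nearest to *Socs3* were *Gabrr2* (0.28), *Gpr146* (0.36) and *Kcna2* (0.36), against a median of 1.11. *Gpr146* had means of 12.3 and 21.0 CPM in WT and 2.92 and 9.14 CPM in *Il6*-/- recipients. Those nearest to *Socs1* were 4933439C10Rik (0.16), *Crtc3* (0.17) and *Nck2* (0.19), against a median of 0.60, and those nearest to *Socs2* included *Erlin1* (0.40) and *Ttl* (0.41), against 0.83.

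With TMM scaling, the kinases and receptors that SOCS proteins act on mostly rose over time. Of 4 JAK kinases, 3 rose in WT recipients and 4 rose in *Il6*-/- recipients, against 29.5% and 30.4% of all genes. In WT recipients 2 rose with RLE scaling and 4 with upper-quartile scaling, and none fell under any of 4 scalings. *Jak2* rose by 1.33 on the log2 scale in WT (SE 0.10) and by 1.61 in *Il6*-/- recipients (SE 0.10), *Jak1* by 0.53 and 0.61, and *Jak3* by 0.20 and 0.57. *Tyk2* had a log2 fold change of 0.12 in WT recipients (FDR = 0.30) and rose by 0.43 in *Il6*-/- recipients. Of 7 STATs, 3 rose in WT and 4 in *Il6*-/- recipients and none fell. In WT recipients 2 rose with RLE scaling and 5 with upper-quartile scaling. *Stat3*, the IL-6 factor, rose by 0.16 and 0.33, while *Stat5a* (0.01 and 0.18) and *Stat5b* (-0.10 and 0.03), which act after IL-2, did not pass. *Stat4* rose by 0.54 and 0.69.

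Of 28 cytokine receptor chains, 21 were tested. Of these, 13 rose and 3 fell in WT recipients (29.5% and 27.1% of all genes). In *Il6*-/- recipients 14 rose and 1 fell (30.4% and 30.1% of all genes). *Il2ra*, the high-affinity chain of the IL-2 receptor and itself a STAT5 target, went from 26.8 ± 9.35 to 3.00 ± 0.588 CPM in WT and from 80.2 ± 17.1 to 6.28 ± 2.51 CPM in *Il6*-/- recipients (SD, n = 3), a fall by 3.15 and 3.68 on the log2 scale. *Il6ra*, the IL-6 receptor, rose by 0.97 and 1.01, and *Il10ra*, the IL-10 receptor, by 1.83 and 1.88. On Day 3 *Il2ra* was higher in *Il6*-/- recipients by 1.59 on the log2 scale (FDR = 0.0010) and *Il6ra* lower (-0.49, FDR = 0.0022). On Day 5 the difference of *Il2ra* was 1.06 (FDR = 0.084) and that of *Il6ra* -0.45 (FDR = 0.0096).

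Genes listed as partners of the SOCS box depended on the scaling. The list held 8 genes of elongin and cullin ligases, with both *Cul5* and *Cul2* among them. Of these 8, 3 fell in WT recipients (27.1% of all genes fell) and 7 fell in *Il6*-/- recipients (30.1%), and none rose. *Cul2*, a cullin scaffold, fell by 1.02 and 1.26 on the log2 scale and *Eloc*, elongin C, by 0.55 and 0.82. *Cul5* was not among the genes with the smallest p, so its values are not given. The median log2 fold change of the 8 was -0.14 in WT and -0.36 in *Il6*-/- recipients, against 0.09 and 0.09 over all genes, and none of the 8 passed the test of a difference between these changes. With upper-quartile scaling 3 rose and 2 fell in WT recipients (median 0.05), and none rose and 2 fell in *Il6*-/- recipients (median -0.13). Of 13 tested genes for other SOCS box proteins, 2 rose and 3 fell in WT recipients and 2 rose and none fell in *Il6*-/- recipients, or 4 and 7 rose and none fell with upper-quartile scaling. Rises made up 29.5% of all genes in WT and 30.4% in *Il6*-/- recipients. *Spsb1* rose by 0.64 and 1.14 and *Asb13* by 1.23 and 0.99.

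Of 13 other brakes on JAK-STAT signaling, 3 rose and 1 fell in WT recipients and 4 rose and 3 fell in *Il6*-/- recipients. Over all genes, 29.5% rose and 27.1% fell in WT recipients, and 30.4% rose and 30.1% fell in *Il6*-/- recipients. With upper-quartile scaling 7 rose and none fell in WT recipients and 6 rose and 1 fell in *Il6*-/- recipients, and with RLE scaling 3 rose and 4 fell in WT recipients. *Cblb*, a ubiquitin ligase that restrains T cell activation, rose by 0.87 and 1.02. *Ptpn1*, a phosphatase of JAKs, rose by 0.25 in WT and by 0.62 in *Il6*-/- recipients. *Pias2* fell by 1.20 in *Il6*-/- recipients (WT log2 fold change -0.39, FDR = 0.068), and *Ptpn6* fell by 0.28 there (WT log2 fold change -0.13, FDR = 0.12). On Day 3, 1 of these 13 was higher and 3 were lower in *Il6*-/- recipients, and on Day 5 none was higher and 1 was lower. Over all genes, 7.52% were higher and 6.19% lower on Day 3, and 1.27% and 3.35% on Day 5.

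Genes induced by the same cytokines as the members were counted without them. Of 18 genes of IL-2 and STAT5, 5 rose and 6 fell over time in WT recipients and 4 rose and 7 fell in *Il6*-/- recipients. Over all genes, 29.5% rose and 27.1% fell in WT recipients, and 30.4% rose and 30.1% fell in *Il6*-/- recipients. *Ccnd2* rose by 1.86 and 1.33, *Fasl* by 4.27 and 2.79, and *Ccnd3* fell by 1.42 and 1.53. Of these 18, 9 were higher in *Il6*-/- recipients on Day 3 and 3 on Day 5, and none was lower. Higher genes made up 7.52% and 1.27% of all genes. The 9 became 7 with upper-quartile scaling and 6 with no scaling. Of 16 tested genes of IL-6 and STAT3, 8 rose and 3 fell in WT recipients and 8 rose and 2 fell in *Il6*-/- recipients. *Fos* rose by 2.47 in WT and 3.18 in *Il6*-/- recipients, and *Bcl6* by 1.24 and 2.35. Of these 16, 8 were lower in *Il6*-/- recipients on Day 3 and 5 on Day 5, and none was higher. Lower genes made up 6.19% and 3.35% of all genes. With no scaling 10 were lower on Day 3 and 4 on Day 5.

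Of 22 tested genes induced by interferon gamma, 16 rose and 1 fell in WT recipients and 18 rose and 1 fell in *Il6*-/- recipients, against 29.5% and 30.4% of all genes that rose. *Irf1* rose by 0.91 and 0.94 and *Nlrc5* by 1.07 and 1.24, and *Irf8*, the gene that fell, fell by 0.60 and 0.90. The list held 6 genes that were higher and 2 that were lower in *Il6*-/- recipients on Day 3, and 4 that were higher and none lower on Day 5. Over all genes, 7.52% were higher and 6.19% lower on Day 3, and 1.27% and 3.35% on Day 5. *Socs1* was counted apart from this list.

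Markers of other cells were read beside these changes, and their part in them was not tested. The 4 markers of NK cells summed to 3.85 to 5.85 CPM in WT recipients on Day 3, 33.7 to 38.1 on Day 5, and 18.6 to 27.7 and 24.7 to 26.3 in *Il6*-/- recipients. *Klrb1c* held most of this sum, while *Klra8* had no read in any library and *Ncr1* had reads in 1 library. The 4 markers of regulatory T cells summed to 93.2 to 106 CPM on Day 3 and 195 to 238 on Day 5 in WT recipients, and to 104 to 111 and 245 to 330 in *Il6*-/- recipients, of which the defining gene *Foxp3* gave 1.92 to 10.1 CPM over the 12 libraries. The 8 myeloid and dendritic markers summed to 99.5 to 107 CPM on Day 3 and 117 to 163 on Day 5, with most of it from *Cst3*. The 5 markers of lung epithelium summed to 0.475 to 20.7 CPM and the 4 of red blood cells to 0.235 to 1.09 CPM. The 2 markers of CD8 T cells summed to 56.6 to 85.9 CPM. Nearly all of this came from *Cd8b1* (56.3 to 84.2 CPM), while *Cd8a* gave 0 to 1.70 CPM.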

How the data were processed

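The authors sequenced poly(A) RNA of sorted OTII cells in ultra-low-input libraries with single-end reads. By the methods and the submitters' processing notes, reads were trimmed with Trim Galore 0.4.4, aligned to GRCm39 with STAR 2.5.2a and counted with HTSeq 0.6.1p1 without strand. The deposited values used here are these raw read counts for 40840 gene symbols in each of 12 libraries. A further deposited table of log2 CPM was not used here.

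Genes were kept by filterByExpr (13570 genes), scaled by TMM (factors 0.944 to 1.06) and fitted in R 4.3.3 with edgeR 4.0.16 as a quasi-likelihood model with 1 coefficient for each of the 4 groups (median biological coefficient of variation 0.132). FDR was adjusted over all genes tested (Benjamini-Hochberg), and a gene was called at an FDR under 0.05. CPM are per 1000000 reads on genes after TMM. Lengths are unions of GENCODE vM39 exons, to which 79.9% of the symbols were matched. Data were simulated for the change over time in WT recipients, with 13570 genes. The test recovered 52.2% of 67 genes changed 1.5-fold, 91% of 67 changed 2-fold and 93.9% of 66 changed 4-fold, with 10 false calls. Far fewer genes changed there than in the data, where 56.7% were called, so the share recovered in the data can differ. The other comparisons were not simulated.

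The members and lists were chosen with earlier results of these data known. All 8 members are named whatever their values. From each pathway list, up to 2 genes in each direction with the smallest p in a comparison of days could be named, along with *Jak1*, *Jak2*, *Jak3*, *Tyk2*, *Stat3*, *Stat5a*, *Stat5b*, *Il2ra* and *Il6ra* whatever their values, and for *Cish*, *Socs1*, *Socs2* and *Socs3* the 3 genes with the smallest RMS difference (prior count 2). Some genes that this rule names are not reported here. Alternatives were other scalings, filters, DESeq2 1.42.0, limma 3.58.1 (voom), offsets for GC content and gene length, fits of the compared groups only, a replicate block, and fits that left out 1 library each.

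Groups share replicate numbers in the labels. On Day 5 the deviations of same-numbered WT and *Il6*-/- libraries from their group means were correlated in all 3 pairs (r = 0.24, 0.21 and 0.13, across genes), so these numbers were taken to pair the Day 5 samples. The source of this pairing is these data, since the labels name no shared animal or day. Libraries with different numbers were not compared in this way, so the correlations cannot settle whether the Day 5 samples are paired.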

Additional observations from a re-analysis of the deposited data

Results flagged for a closer look

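The change of *Socs3* from Day 3 to Day 5 differed between the genotypes by a test of the difference itself. On the log2 scale the change was 1.95 in *Il6*-/- and 0.47 in WT recipients, a difference of 1.48 (edgeR quasi-likelihood interaction, FDR = 0.0081). All 3 libraries of Day 5 were above all 3 of Day 3 in each genotype. Leaving out each library in turn gave differences of 1.31 to 1.66, with an FDR of at most 0.03, and the difference passed in all 10 other settings (1.45 to 1.58).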

How the results depend on the processing

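Of 8 members, 5, 4, 2, 3 and 1 were called for the change over time in WT and in *Il6*-/- recipients, the difference between genotypes on Day 3 and on Day 5, and the difference between the changes. For the change in WT recipients the count was 3 with no filter on low counts and 3 with the offset for GC content, and 1 with a change of at least 2-fold, which left 2 for the change in *Il6*-/- recipients. The difference between the changes was called for 2 members with DESeq2 and for 2 with no filter. Leaving out each library in turn gave 3 to 5, 3 to 5, 2, 2 to 3 and 1 to 2 members. The share of *Socs1* in WT recipients on Day 5 (44.7%) was 31.4% without length and 37.5% with the canonical transcript, a length chosen after seeing the data, and 42.9% to 46.5% without 1 library.

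Values that changed sign belonged to members that did not pass and lay near 0. For the change over time, *Socs4* came to 0.052 in WT and 0.062 in *Il6*-/- recipients with upper-quartile scaling, and *Socs1* in *Il6*-/- recipients to -0.029 with the offset for GC content. For the difference between the changes, *Socs4* came to 0.0099 with upper-quartile scaling, 0.076 with no scaling, 3.8e-05 with DESeq2 and 0.017 with the offset for GC content, and *Socs7* to 0.016 with no scaling. Leaving out 1 library moved the Day 5 difference of *Socs2* over -0.21 to 0.64 and of *Socs6* over -0.21 to 0.015, and the difference between the changes over -0.33 to 0.0024 for *Cish*, -0.80 to 0.28 for *Socs2*, -0.10 to 0.11 for *Socs4* and -0.21 to 0.11 for *Socs7*. The cause was not tested. Upper-quartile scaling moved the median change of all genes over time by 0.20 in WT and 0.23 in *Il6*-/- recipients, and no scaling by 0.15 in *Il6*-/- recipients.

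With the replicate number as a block the counts were 5, 4, 2, 3 and 1, and the block changed no member's call. It moved the share of all genes called from 4.61% to 11.7% on Day 5 and from 13.7% to 19.6% on Day 3. Same-numbered libraries of Day 3 deviated together with r of 0.032 to 0.060, and those of the same genotype across days with r of -0.071 to 0.071. Whether same-numbered samples share more than a number was not tested, on Day 5 or elsewhere.

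With 3 libraries in a group, changes of 1.5-fold could be missed. In the simulation 52.2% of them were recovered, but it changed far fewer genes than moved in the data, so that share need not hold here. *Socs2* rests on 6 to 47 reads, and the order of levels per kb on lengths that an annotation other than that of the counting supplied. No label ties a library to an animal or a date, and batches of that kind could not be looked for.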
